A study of Mus musculus with 62 samples.

Results

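The circadian clock genes described here were 10 of the 23038 gene rows in each table. The rule picks them by symbol alone, but they were chosen with earlier results of these data known. They were the activators Arntl (also called Bmal1), Clock and Npas2, the repressors Per1, Per2, Per3, Cry1 and Cry2, the nuclear receptor Nr1d1 (REV-ERBα) and the output factor Dbp. All 10 had a row in every library and passed the filter on low counts in every comparison.

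In mammalian cells ARNTL pairs with CLOCK or NPAS2, and the pair binds E-box sequences and switches on the Per and Cry genes. PER and CRY proteins gather over the day, enter the nucleus and repress that pair, and NR1D1 represses Arntl through ROR elements, so that transcript levels of the loop swing over each day in opposite phases. DBP, itself under E-box control, acts through D-box sequences, and the suprachiasmatic nucleus of the hypothalamus keeps the clocks of other brain regions and of the pituitary in phase. Per1 also answers to neuronal activity and to glucocorticoids. The hour at which tissue was taken is not given in the sources used here, and its part in the differences below was not tested.

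The series measured polyA-selected RNA of BL6 mice after deletion of Nova1, which encodes a neuronal RNA-binding protein that regulates splicing. In the tissues, cKO mice had lost Nova1 in inhibitory neurons and cHet mice, known only by that label, were their controls. Caudate putamen, substantia nigra, hypothalamus and periaqueductal gray at P21 each gave 4 cKO and 4 cHet libraries, and the pituitary at P21 gave 3 and 3. Whole brains at P0 gave 6 cKO and 6 cHet libraries of ribosome-bound RNA, isolated by TRAP, which pulls down tagged ribosomes to read inhibitory neurons. Primary neurons of ventral diencephalon and mesencephalon, taken at e13.5, received lentivirus at DIV7 and were collected at DIV14. The KO + Impact cultures received a pUltra vector with eGFP, Cre and Impact, the KO cultures one with eGFP and Cre, and the WT cultures one with eGFP alone, at 4 libraries each. The sources used here do not give the driver of Cre in the mice or the cHet allele, nor whether numbered libraries came from separate animals or cultures. The p-values therefore measure the spread between these libraries, which may be technical.

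Libraries held 2238743 to 3104026 tags in the pituitary, 15419383 to 24333817 in the brain regions, 7380726 to 25359780 in TRAP and 20954371 to 29531885 in primary neurons. These totals include the ribosomal RNA gene Rn45s, which took 25.6% to 40.8% of tags in cHet pituitary and 15.4% to 32.6% in cKO pituitary. Nova1 itself fell in cKO caudate putamen (log2 fold change -1.86), substantia nigra (-1.14), hypothalamus (-0.61) and TRAP (-3.03), and in KO + Impact and KO neurons against WT (-3.08 and -3.60). It did not pass in the periaqueductal gray (-0.30, adjusted p = 0.114) or the pituitary (-0.85, adjusted p = 0.761). The title of caudate putamen cKO 1 names the periaqueductal gray, whereas its tissue label names the caudate putamen. The summed CPM of 5 striatal markers was 3061 to 3627 over the 4 caudate cKO libraries, this one included, and 25.8 to 34.2 in periaqueductal gray cKO, and the caudate calls on members below were the same without it.

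The upstream sequences of the loop show where the letters of these elements lie, and those of Per1, Per3 and Cry1 are printed because Per1 and Cry1 differed between genotypes and Per3 did not. RefSeq windows of GRCm38.p6, which run from 250 bases before to 50 after a transcript start, were held for 9 of the 10 genes (13 windows; Per2 was not matched). Both strands were searched for the E-box CACGTG, the D-box TTATGTAA or TTATGCAA, the cAMP-response element TGACGTCA and the ROR element cores GTAGGTCA or GTAGGTTA. Capitals mark the matches, each sequence runs 5′ to 3′ on the gene's strand, and no motif overlaps another. The lines give 250 bases upstream of Per1 (chr11:69098699-69098948, plus strand), Per3 (chr4:151044666-151044915, minus strand) and Cry1 (chr10:85185055-85185304, minus strand), and 2 stretches of 30 bases at the starts of Arntl (chr7:113207493-113207522 and chr7:113207529-113207558, plus strand).
Per1: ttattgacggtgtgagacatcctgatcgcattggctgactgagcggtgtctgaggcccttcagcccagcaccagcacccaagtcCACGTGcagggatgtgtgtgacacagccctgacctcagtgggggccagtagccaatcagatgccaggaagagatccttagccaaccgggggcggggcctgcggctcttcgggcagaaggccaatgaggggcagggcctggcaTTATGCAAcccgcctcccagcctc
Per3: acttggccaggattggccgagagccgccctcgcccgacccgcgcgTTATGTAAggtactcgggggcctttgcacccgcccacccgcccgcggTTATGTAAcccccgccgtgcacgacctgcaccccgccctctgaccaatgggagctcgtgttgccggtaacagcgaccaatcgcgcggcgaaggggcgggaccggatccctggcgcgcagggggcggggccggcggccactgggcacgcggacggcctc
Cry1: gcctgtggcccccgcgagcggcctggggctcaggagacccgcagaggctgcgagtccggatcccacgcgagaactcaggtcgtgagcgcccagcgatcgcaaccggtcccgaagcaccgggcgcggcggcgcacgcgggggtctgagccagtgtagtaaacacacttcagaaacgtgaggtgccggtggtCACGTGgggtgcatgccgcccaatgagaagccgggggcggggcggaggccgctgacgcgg
Arntl, upstream stretch: ttggtcggaaaGTAGGTTAgtggtgcgaca
Arntl, downstream stretch: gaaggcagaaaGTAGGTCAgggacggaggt

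The E-box began 166 bases before the start of Per1 in the printed window and 60 before that of Cry1, and it was in 7.15% of all 32851 mouse windows. Another Per1 window, chr11:69099902-69100201, held no match. D-boxes began 24 bases before that same start of Per1 and 205 and 158 before that of Per3, a motif of 1.66% of all windows. The ROR core lay at both Arntl stretches, against 0.925% of all windows, and no member window held the cAMP-response element, which 1.79% of all windows held. Cry2, Dbp, Nr1d1, Clock and Npas2 had no match to these letters in their windows. Cry2, Npas2 and Dbp also differed between genotypes, so the printed sequences do not stand for all genes that did. These are matches of letters and no measure of binding.

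In GENCODE M21 annotation of GRCm38, Arntl lies on chromosome 7, 113207465 to 113314126, plus strand, Clock on chromosome 5, 76209868 to 76304792, minus strand and Npas2 on chromosome 1, 39193731 to 39363236, plus strand. Per1 lies on chromosome 11, 69095217 to 69109960, plus strand, Per2 on chromosome 1, 91415982 to 91459324, minus strand, Per3 on chromosome 4, 151003652 to 151044665, minus strand, Cry1 on chromosome 10, 85131700 to 85185064, minus strand and Cry2 on chromosome 2, 92403646 to 92434043, minus strand. Nr1d1 lies on chromosome 11, 98767932 to 98775333, minus strand, and Dbp on chromosome 7, 45705088 to 45710203, plus strand. Exons of a gene on the other strand share 539 bases with Dbp (18% of its exon sequence, shared with Sphk2), 263 with Nr1d1 (8.55%, Thra) and 295 with Cry2 (4.67%, D930015M05Rik). These are shares of all exons in that annotation, 2993 bases for Dbp, whereas the deposited exon length of Dbp is 1678 bases. The share of the counted sequence is thus not known. Whether counting used strand is not given in the sources used here, so reads in these stretches cannot be told apart.

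Among control tissues, Nr1d1 had the highest level per length of the 10 genes in every brain region and Dbp the next, on the deposited RPKM scale. Nr1d1 averaged 50.2 ± 4.49 RPKM in cHet caudate putamen, 46.4 ± 1.56 in hypothalamus, 43.5 ± 3.42 in substantia nigra and 40.4 ± 1.47 in periaqueductal gray (SD, n = 4 each). Dbp averaged 44.5 ± 3.02 RPKM in caudate putamen and 19.5 ± 0.791 in periaqueductal gray. The pituitary had another order, with Per1 at 34.5 ± 5.56 RPKM, Dbp at 33.8 ± 12.4 and Nr1d1 at 29.7 ± 8.37 (SD, n = 3), whose spreads overlapped. Ribosome-bound RNA at P0 and cultured neurons had little Dbp and Per3 per length, and other members were below Dbp there too. Per2 averaged 0.852 RPKM and Npas2 1.65 in cHet TRAP, and 2.31 and 1.04 in WT neurons. In cHet TRAP libraries Nr1d1 averaged 47.4 ± 3.74 RPKM, Dbp 2.90 ± 0.645 and Per3 0.220 ± 0.0912 (SD, n = 6), and in WT neurons Nr1d1 averaged 31.4 ± 1.86 RPKM, Dbp 5.72 ± 0.967 and Per3 2.97 ± 0.529 (SD, n = 4). RPKM divides by all tags, Rn45s included, and Rn45s took 15.4% to 40.8% of tags in pituitary and 13.8% to 25.6% in TRAP. Its share was 0.472% to 1.89% in the brain regions and 5.30% to 8.40% in primary neurons. RPKM in pituitary and TRAP is thus lowered beside the brain regions. In CPM scaled by TMM, Dbp averaged 71.2 in cHet pituitary and 69.2 in cHet caudate putamen. On that scale Thra, which shares exon sequence with Nr1d1, averaged 588 in cHet caudate putamen and 1118 in cHet TRAP. Nr1d1 averaged 122 and 155 there. Sphk2, which shares exon sequence with Dbp, averaged 54.3 in cHet caudate putamen. The part of these opposite-strand genes in the Nr1d1 and Dbp levels was not tested. The plot of RPKM by tissue shows the RPKM levels for every gene.

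**Figure D1:**
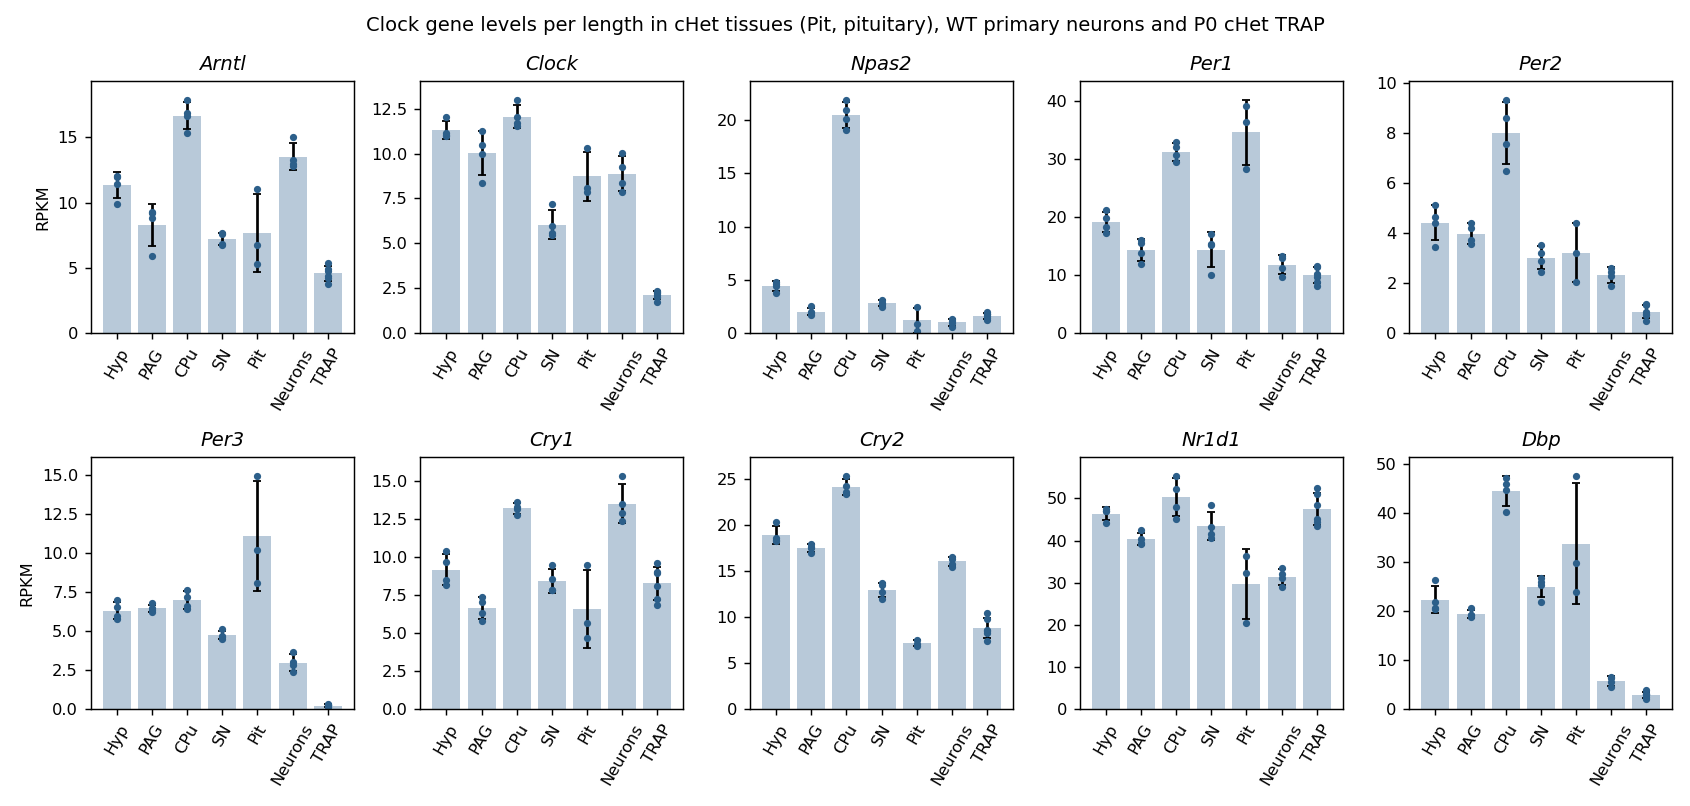
Deposited RPKM of each clock gene in control libraries; bars are means, error lines are SD and points are libraries, with cHet hypothalamus (Hyp), periaqueductal gray (PAG), caudate putamen (CPu), substantia nigra (SN) and pituitary (Pit), WT primary neurons and cHet TRAP at P0. In the 4 brain regions every gene has its highest bar in the caudate putamen, and Npas2 stands out most. The share of all genes with that pattern was not computed. The totals behind RPKM include Rn45s, which lowers the pituitary and TRAP bars beside those of the brain regions.

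Differences between the 4 cHet regions passed for all 10 genes in a test with 3 degrees of freedom, against 84.2% of all genes tested. The caudate putamen had the highest CPM of each, and the order below it varied by gene. The share of all genes that are highest there was not computed. Between cHet hypothalamus and cHet caudate putamen, 9057 of the 15660 genes tested were called in either direction. Npas2, the partner of ARNTL known for its forebrain expression, spanned the widest range, 10.1-fold between caudate putamen and periaqueductal gray. It had 75.3, 84.4, 80.8 and 81.1 CPM in cHet caudate putamen, 17.4, 18, 14.3 and 17 in hypothalamus, 12.8, 11.4, 11.6 and 9.83 in substantia nigra and 7.72, 7.36, 7.06 and 9.85 in periaqueductal gray. The caudate libraries lay far above all others, and each step of that order passed (adjusted p = 6.1e-16, 7.3e-06 and 0.00117 from the top).

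Its alternative, Clock, was much more even, with a 1.93-fold range: caudate putamen against hypothalamus and hypothalamus against periaqueductal gray did not pass (adjusted p = 0.135 and 0.297), while substantia nigra was below all (adjusted p = 6.75e-07 against its neighbour). Arntl ranged 2.24-fold, with caudate putamen, hypothalamus and periaqueductal gray in falling order and no call between periaqueductal gray and substantia nigra (adjusted p = 0.0694). Without periaqueductal gray cHet 3 that last pair passed, at an adjusted p of 0.00278.

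Among the repressors, Per2 ranged 2.57-fold and Per1 2.19-fold, both with caudate putamen above hypothalamus (adjusted p = 3.87e-07 and 9.25e-07). For Per1, substantia nigra and periaqueductal gray did not differ beyond their spread (adjusted p = 0.928), nor did hypothalamus and periaqueductal gray for Per2 (adjusted p = 0.539). Cry1 ranged 2.00-fold, Cry2 1.81-fold and Per3 1.43-fold. For Cry1 and Cry2 caudate putamen stood above hypothalamus (adjusted p = 2.45e-06 and 5.32e-07), and for Per3 the top 3 regions did not differ from their neighbours in the order (adjusted p = 0.081 and 0.546).

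Dbp ranged 2.29-fold, with caudate putamen above substantia nigra (adjusted p = 1.5e-09) and the next steps not passing (adjusted p = 0.0742 and 0.165). The step between substantia nigra and hypothalamus passed in 9 alternatives, with DESeq2 (adjusted p = 0.0463), DESeq2 size factors (0.0475), no filter (0.0354), removal of the ribosomal RNA gene Rn45s (0.0309) and the replicate block (0.0359), and without hypothalamus cHet 3, periaqueductal gray cHet 3, caudate putamen cHet 1 or substantia nigra cHet 1 (0.00623, 0.0323, 0.0287 and 0.00831). Nr1d1 was the most even gene, ranging 1.24-fold, and only caudate putamen against substantia nigra passed among its neighbours (adjusted p = 0.00118). Its step between hypothalamus and periaqueductal gray (adjusted p = 0.0689) passed without periaqueductal gray cHet 3 (0.045) and with the replicate block (0.0335). In bulk tissue, fewer cells of a type and less RNA per cell cannot be told apart, here and in all that follows.

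Set against cHet hypothalamus, cHet pituitary had more Per1, Per3 and Dbp and less Cry2 and Npas2. These were 5 of 10 genes, where 68.7% of all genes tested were called. Per1 had 235, 189.8 and 207 CPM in cHet pituitary, against 81.5, 92.6, 77 and 88 CPM in cHet hypothalamus (log2 fold change 1.38, SE 0.10, adjusted p = 2.98e-09). Per3 (1.34, adjusted p = 8.7e-06) and Dbp (1.11, adjusted p = 9.67e-05) were higher too, and Cry2 (-0.87, adjusted p = 1.68e-06) and Npas2 (-1.25, adjusted p = 0.00264) were lower. The pituitary libraries were shallower, and Npas2 rested on as few as 2 tags in a cHet library there. Without pituitary cHet 2, Nr1d1 was also called lower (log2 fold change -0.37, adjusted p = 0.00709).

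Deletion of Nova1 in inhibitory neurons went with higher Cry2 in each of the 4 brain regions, higher Cry1 and Npas2 in 3 of them, higher Per1 in 2 and lower Dbp in 1, all by less than 1 on the log2 scale. Genes were called where edgeR's quasi-likelihood test, adjusted by Benjamini-Hochberg over all genes tested, gave a p under 0.05. In hypothalamus 4 of 10 clock genes rose and 0 fell, where 12% of all genes tested were called and 5.57% rose. In periaqueductal gray 4 rose and 0 fell (background 9.73% called, 4.33% rose). In caudate putamen 2 rose and 0 fell (background 10.4% called, 5.32% rose). In substantia nigra 2 rose and 1 fell (background 9.81% called, 4.35% rose and 5.46% fell). A call as higher in every region, which Cry2 had, was made for 0.752% of the 14227 genes tested in all 4. All cKO libraries lay above all cHet libraries for 7.5% of the genes tested in caudate putamen, 6.86% in substantia nigra, 7.5% in hypothalamus and 7.18% in periaqueductal gray. The median log2 fold change of the 10 genes was 0.15 in caudate putamen, 0.091 in substantia nigra, 0.14 in hypothalamus and 0.14 in periaqueductal gray, beside 0.0028 in caudate putamen, 0.0014 in substantia nigra, -0.0029 in hypothalamus and -0.0019 in periaqueductal gray over all genes tested.

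**Figure D2:**
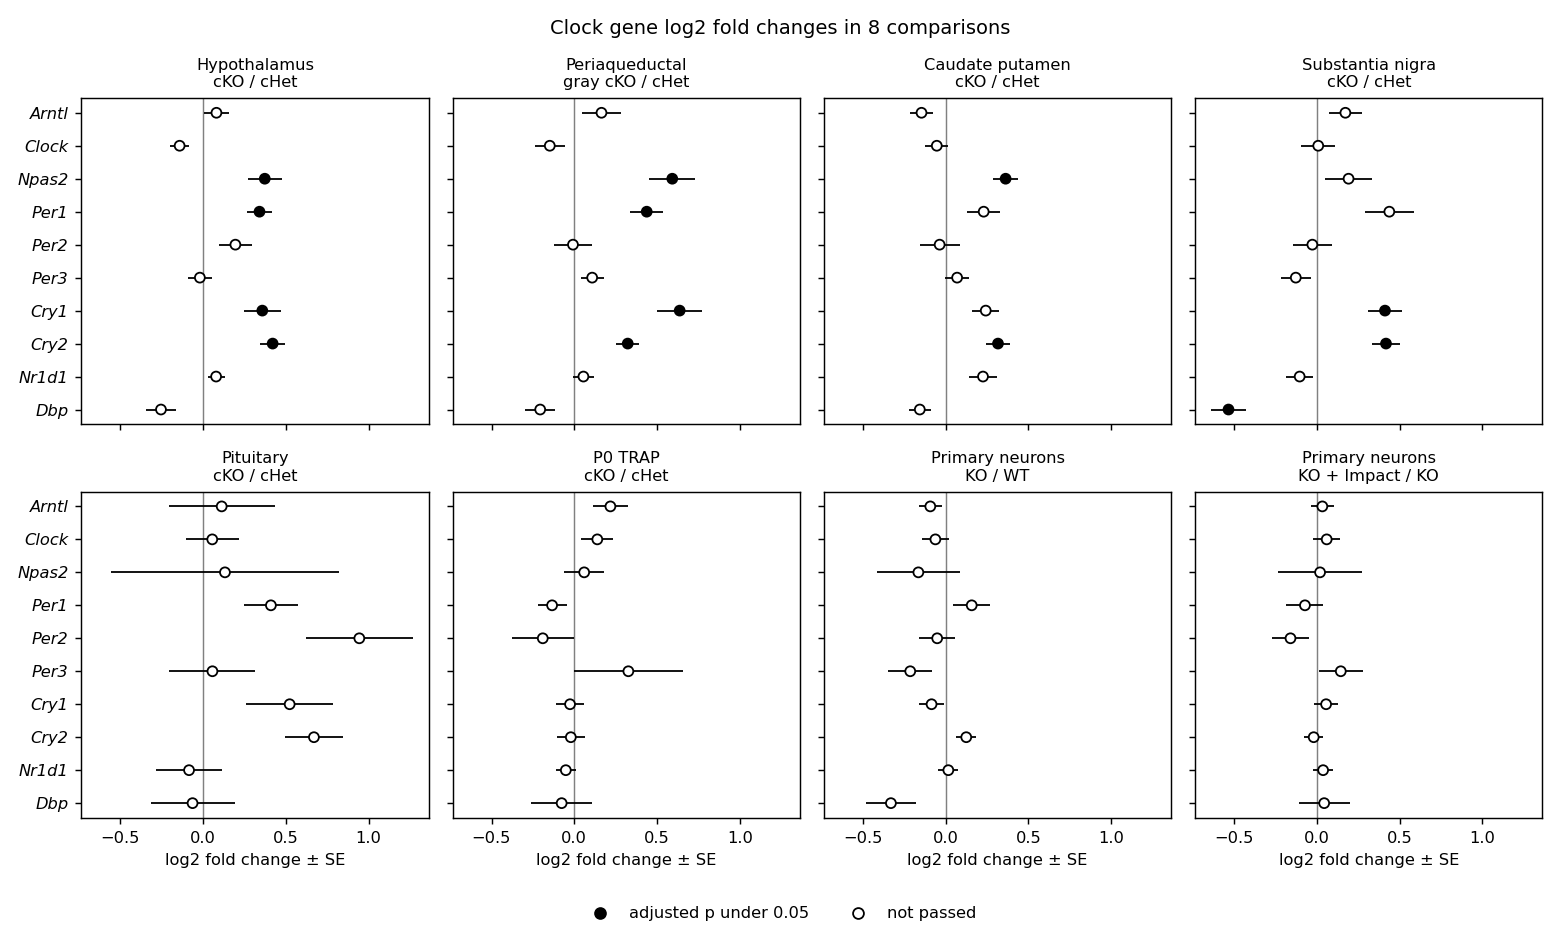
Log2 fold change of each clock gene for cKO against cHet in each tissue and in TRAP, and for KO against WT and KO + Impact against KO in primary neurons. Error lines are 1 SE, filled points passed an adjusted p of 0.05 and open points did not. KO + Impact against WT, the average over regions and the comparisons between tissues are not drawn. In the brain regions Cry2 lies to the right of 0 in all 4 and is filled in all 4, while no point is filled in pituitary, TRAP or primary neurons. All points are from the test without a block for the number.

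Cry2, a cryptochrome that represses the ARNTL pair, rose in every region with no overlap between genotypes. In hypothalamus it had 159.7, 147, 127 and 117 CPM in cKO, against 111, 99.1, 100.4 and 102 CPM in cHet (log2 fold change 0.42, SE 0.074, adjusted p = 0.00163). In periaqueductal gray it had 130.04, 138, 111 and 116 CPM in cKO, against 99.2, 98.6, 103 and 95.2 CPM in cHet (log2 fold change 0.32, SE 0.071, adjusted p = 0.00928). Every cKO library was above every cHet library, and in both regions cKO 1 and 2 stood above cKO 3 and 4. In caudate putamen it had 191, 185, 154 and 149 CPM in cKO, against 134, 141, 137 and 135 CPM in cHet (log2 fold change 0.32, SE 0.073, adjusted p = 0.0119). In substantia nigra it had 115, 106, 90.9 and 90.4 CPM in cKO, against 79.5, 76.8, 76.8 and 69.5 CPM in cHet (log2 fold change 0.42, SE 0.083, adjusted p = 0.00745). The cHet libraries were close together in these regions, and cKO 1 and 2 were again the higher ones. The opposite-strand gene D930015M05Rik, which shares a small part of the Cry2 exons, rose in caudate putamen (0.45, adjusted p = 0.0397) and did not pass in the other regions (log2 fold changes 0.28 in substantia nigra, 0.42 in hypothalamus and 0.44 in periaqueductal gray). That caudate call was lost without any 1 of 7 of the 8 libraries, all but cKO 3 (adjusted p up to 0.129), and the gene passed in hypothalamus without cKO 3 or cKO 4 and in periaqueductal gray without cKO 3. Its part in the Cry2 counts was not tested.

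Cry1, the other cryptochrome, rose in substantia nigra, hypothalamus and periaqueductal gray, and not past the test in caudate putamen. In periaqueductal gray it had 36.8, 30.7, 26.9 and 20.7 CPM in cKO, against 19.7, 17.2, 16.7 and 20.5 CPM in cHet (log2 fold change 0.64, SE 0.14, adjusted p = 0.00803). In substantia nigra it had 37.6, 32.5, 30.01 and 28.1 CPM in cKO, against 24.5, 22, 23.4 and 27.3 CPM in cHet (log2 fold change 0.41, SE 0.10, adjusted p = 0.0205). All cKO libraries lay above all cHet libraries in both, though the lowest cKO value was close to the highest cHet value. In hypothalamus it had 38.5, 34.5, 27.6 and 25.4 CPM in cKO, against 22.1, 27.6, 22.9 and 26 CPM in cHet (log2 fold change 0.36, SE 0.11, adjusted p = 0.0418), with cKO 4 inside the cHet range and cKO 3 level with cHet 2. In caudate putamen it had 49.4, 39.5, 46.3 and 38.8 CPM in cKO, against 37, 35, 39.1 and 36.6 CPM in cHet (log2 fold change 0.24, SE 0.081, adjusted p = 0.0666), and cKO 4 lay among the cHet libraries. The calls outside periaqueductal gray rested on single libraries. In hypothalamus the call was lost without cKO 1, cKO 2, cHet 1, cHet 3 or cHet 4 (adjusted p = 0.168, 0.117, 0.122, 0.109 and 0.0627). In substantia nigra it was lost without cKO 1, cKO 2, cHet 1 or cHet 2 (adjusted p = 0.0656, 0.0585, 0.0568 and 0.0638). In caudate putamen it was gained without cKO 4 (adjusted p = 0.0295) and with DESeq2 (adjusted p = 0.0455).

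Per1, the period gene that responds fastest to light and activity, rose in hypothalamus and periaqueductal gray. In hypothalamus it had 111, 124, 98.3 and 95.3 CPM in cKO, against 81.5, 92.6, 77 and 88 CPM in cHet (log2 fold change 0.34, SE 0.076, adjusted p = 0.0073). In periaqueductal gray it had 93.9, 104, 78.7 and 78.2 CPM in cKO, against 73.7, 61.5, 56.4 and 70.6 CPM in cHet (log2 fold change 0.44, SE 0.10, adjusted p = 0.0107). No library overlapped between genotypes, and cKO 1 and 2 were the 2 highest libraries in both. In substantia nigra it had 109, 104, 84.3 and 69.9 CPM in cKO, against 72.5, 78.5, 49.2 and 71.7 CPM in cHet (log2 fold change 0.44, SE 0.15, adjusted p = 0.0745), and in caudate putamen 184, 202, 159 and 127 CPM in cKO, against 153, 138, 151 and 133 CPM in cHet (log2 fold change 0.23, SE 0.10, adjusted p = 0.149). In these 2 regions cKO 4 was the lowest cKO library and lay within or below the cHet range. Without cKO 4, Per1 was called in substantia nigra (adjusted p = 0.0225) and in caudate putamen (log2 fold change 0.34, adjusted p = 0.00809).

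Per2 and Per3, the other period genes, passed in no region. Per2 had 42.7, 46, 50.9 and 33 CPM in cKO, against 36.2, 41.4, 53.1 and 47.2 CPM in cHet in caudate putamen (log2 fold change -0.036), with the 2 genotypes interleaved, and 25.4, 26.8, 28.6 and 27.2 CPM in cKO, against 24.9, 27.1, 18.7 and 23.7 CPM in cHet in hypothalamus (0.20, SE 0.10, adjusted p = 0.202). Its log2 fold change was -0.0081 in periaqueductal gray and -0.027 in substantia nigra. Per3 had log2 fold changes of 0.070 in caudate putamen, -0.13 in substantia nigra, -0.019 in hypothalamus and 0.11 in periaqueductal gray, with SEs of 0.073, 0.092, 0.074 and 0.070. The genotypes overlapped for both genes in all 4 regions.

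Of the activators, Npas2 rose in caudate putamen, hypothalamus and periaqueductal gray. In caudate putamen, where it is most abundant, it had 115, 106, 87.3 and 103 CPM in cKO, against 75.3, 84.4, 80.8 and 81.1 CPM in cHet (log2 fold change 0.36, SE 0.074, adjusted p = 0.00634). In periaqueductal gray it had 11.9, 14.6, 10.4 and 11.5 CPM in cKO, against 7.72, 7.36, 7.06 and 9.85 CPM in cHet (log2 fold change 0.59, SE 0.14, adjusted p = 0.0128). The genotypes did not overlap in either region, although in periaqueductal gray cHet 4 came close to cKO 3. In hypothalamus it had 24.9, 21.9, 17.9 and 21.6 CPM in cKO, against 17.4, 18, 14.3 and 17 CPM in cHet (log2 fold change 0.37, SE 0.10, adjusted p = 0.0228), with cKO 3 just inside the cHet range. In substantia nigra it had 16.2, 13, 12.7 and 9.85 CPM in cKO, against 12.8, 11.4, 11.6 and 9.83 CPM in cHet (log2 fold change 0.19, SE 0.14, adjusted p = 0.427). The caudate call held in every alternative. The call was lost in hypothalamus without cKO 1, cKO 2 or cHet 3 (adjusted p = 0.0941, 0.052 and 0.0758) and in periaqueductal gray without cKO 2 (adjusted p = 0.0566).

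Arntl and Clock passed in no region. Arntl had 32.7, 31.3, 29.2 and 33.1 CPM in cKO, against 26.2, 31.3, 31.8 and 30.2 CPM in cHet in hypothalamus (log2 fold change 0.081) and 44.4, 39.1, 40.7 and 40.2 CPM in cKO, against 42.3, 44.7, 50.2 and 45.5 CPM in cHet in caudate putamen (-0.15, SE 0.071, adjusted p = 0.203), and the genotypes overlapped in both. Its log2 fold change was 0.16 in periaqueductal gray and 0.17 in substantia nigra. Clock had 77.6, 79.3, 68.7 and 75 CPM in cKO, against 81.3, 80.9, 81.2 and 88.8 CPM in cHet in hypothalamus (-0.14, SE 0.058, adjusted p = 0.119). All 4 cKO libraries were below all 4 cHet libraries there, an order that 8.63% of all genes tested had, and the test did not pass. Its log2 fold change was -0.053 in caudate putamen, 0.0089 in substantia nigra and -0.15 in periaqueductal gray.

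Dbp, the D-box activator whose transcript swings widely over the day in many tissues, was the only one of the 10 genes to fall. In substantia nigra it had 23.9, 24.4, 33.6 and 27.8 CPM in cKO, against 34.9, 40.4, 41.9 and 42.7 CPM in cHet (log2 fold change -0.53, SE 0.11, adjusted p = 0.00791). Every cKO library was below every cHet library, as for 8.91% of all genes tested there, and the call held in every alternative. In hypothalamus it had 25.8, 27.3, 31.9 and 26.9 CPM in cKO, against 32.9, 30.4, 39.7 and 30.6 CPM in cHet (log2 fold change -0.25, SE 0.092, adjusted p = 0.0782), where cKO 3 overlapped the cHet range; without that library the gene was called (adjusted p = 0.0306). In periaqueductal gray it had 22.4, 24.6, 29.4 and 28.4 CPM in cKO, against 29.7, 28.5, 30.8 and 31.9 CPM in cHet (log2 fold change -0.21, SE 0.092, adjusted p = 0.174), and in caudate putamen 61.9, 61, 59.8 and 64.7 CPM in cKO, against 63.1, 68.3, 75.3 and 70.2 CPM in cHet (log2 fold change -0.16, SE 0.065, adjusted p = 0.135). The cKO mean was below the cHet mean in these 2 regions as well, and the ranges overlapped. Sphk2, which encodes a sphingosine kinase and shares exon sequence with Dbp on the other strand, fell in periaqueductal gray (-0.37, adjusted p = 0.00889) and substantia nigra (-0.33, adjusted p = 0.00754), and had log2 fold changes of -0.18 in hypothalamus and -0.17 in caudate putamen. Its part in the Dbp counts was not tested.

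Nr1d1, the repressor of Arntl, passed in no region. It had 122, 114, 113 and 109 CPM in cKO, against 111, 109, 112 and 104 CPM in cHet in hypothalamus (log2 fold change 0.079) and 169, 139.5, 133 and 128 CPM in cKO, against 118, 125, 138 and 108 CPM in cHet in caudate putamen (0.23, SE 0.084, adjusted p = 0.0948). The ranges overlapped in both, with cKO 1 the highest caudate library. Its log2 fold change was 0.055 in periaqueductal gray and -0.10 in substantia nigra. Thra, a thyroid hormone receptor gene that shares exon sequence with Nr1d1 on the other strand, rose in hypothalamus (0.25, adjusted p = 0.0017) and caudate putamen (0.36, adjusted p = 0.000965).

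**Figure D3:**
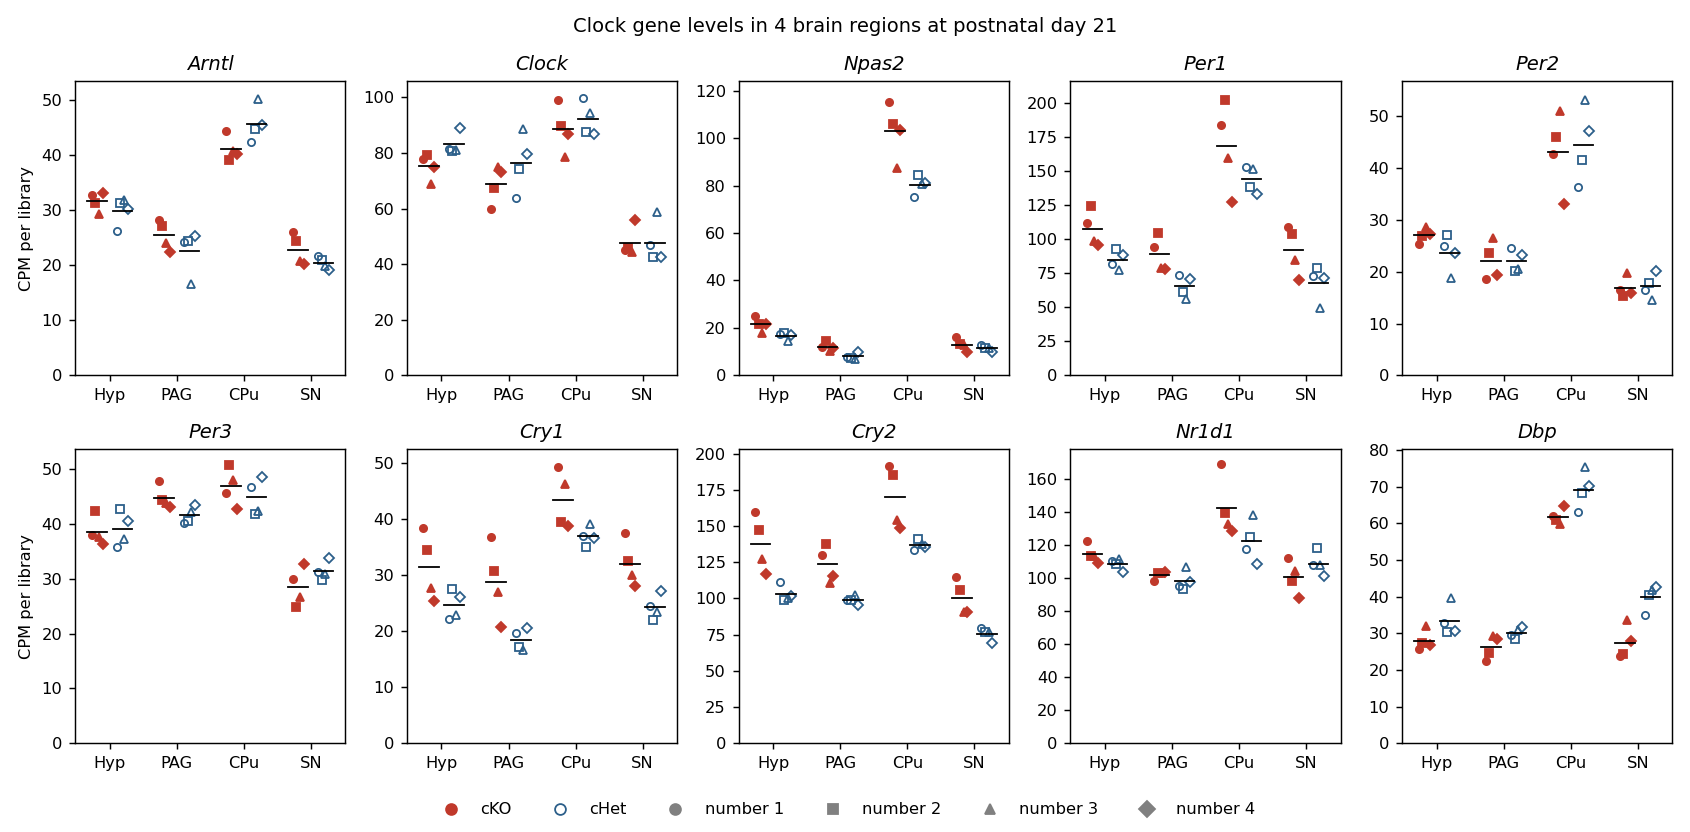
CPM of each clock gene in every library of the 4 brain regions at P21 (Hyp, hypothalamus; PAG, periaqueductal gray; CPu, caudate putamen; SN, substantia nigra), with cKO left of cHet; lines mark group means. Cry2 points of cKO lie above those of cHet in each region, and Dbp points of cKO lie below those of cHet in substantia nigra.

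Averaged over the 4 regions in 1 model of 32 libraries, 4 clock genes rose and 1 fell, where 39% of all genes tested were called, 19.4% as higher and 19.6% as lower. Cry1 (0.41, SE 0.064, adjusted p = 3.93e-06), Npas2 (0.38, SE 0.060, adjusted p = 6.6e-06), Cry2 (0.37, SE 0.043, adjusted p = 2.68e-08) and Per1 (0.36, SE 0.066, adjusted p = 4.63e-05) rose, and Dbp fell (log2 fold change -0.29, SE 0.048, adjusted p = 1.18e-05). Clock (-0.085, adjusted p = 0.154), Arntl (0.066, adjusted p = 0.297), Nr1d1 (0.063, adjusted p = 0.189), Per2 (0.030, adjusted p = 0.748) and Per3 (0.0066, adjusted p = 0.912) did not pass. All 5 calls held in every alternative. The opposite-strand genes were called in this average too. D930015M05Rik, beside Cry2, rose (0.39, adjusted p = 0.000193), and Sphk2, beside Dbp, fell (-0.26, adjusted p = 1.79e-07). Thra, beside Nr1d1, rose (0.23, adjusted p = 3.93e-07). Their calls also held in every alternative, and the part of these genes in the member counts was not tested. This model counts libraries of different regions as independent, although cKO libraries of the same number deviated together across regions.

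Counts were therefore also summed over the 4 regions by genotype and number, which leaves 4 cKO and 4 cHet sums, and the CPM given here are means over the 4 regions of a number. The same 5 genes passed, where 25.4% of all genes tested were called. Per1 averaged 124, 133, 105 and 92.7 CPM in cKO, against 95.1, 92.7, 83.4 and 90.9 CPM in cHet (log2 fold change 0.33, SE 0.090, adjusted p = 0.018). Cry1 averaged 40.6, 34.3, 32.7 and 28.3 CPM in cKO, against 25.8, 25.4, 25.5 and 27.6 CPM in cHet (log2 fold change 0.37, adjusted p = 0.00604). In both, cKO 1 and 2 were highest, and for Per1 cKO 4 was within the cHet range. Cry2 averaged 149, 144, 121 and 118 CPM in cKO, against 106, 104, 104 and 100.4 CPM in cHet (log2 fold change 0.37, adjusted p = 0.00199). Npas2 averaged 42, 38.9, 32.1 and 36.6 CPM in cKO, against 28.3, 30.3, 28.5 and 29.4 CPM in cHet (log2 fold change 0.35, adjusted p = 0.00241). Neither gene overlapped between genotypes. Dbp averaged 33.5, 34.3, 38.7 and 36.9 CPM in cKO, against 40.1, 41.9, 46.9 and 43.9 CPM in cHet (log2 fold change -0.27, adjusted p = 0.00601), and every cKO value was below every cHet value. The share of all genes whose genotypes separate in this way was not computed for these means. The separation of Cry1, Cry2, Npas2 and Dbp is thus a description only.

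**Figure D4:**
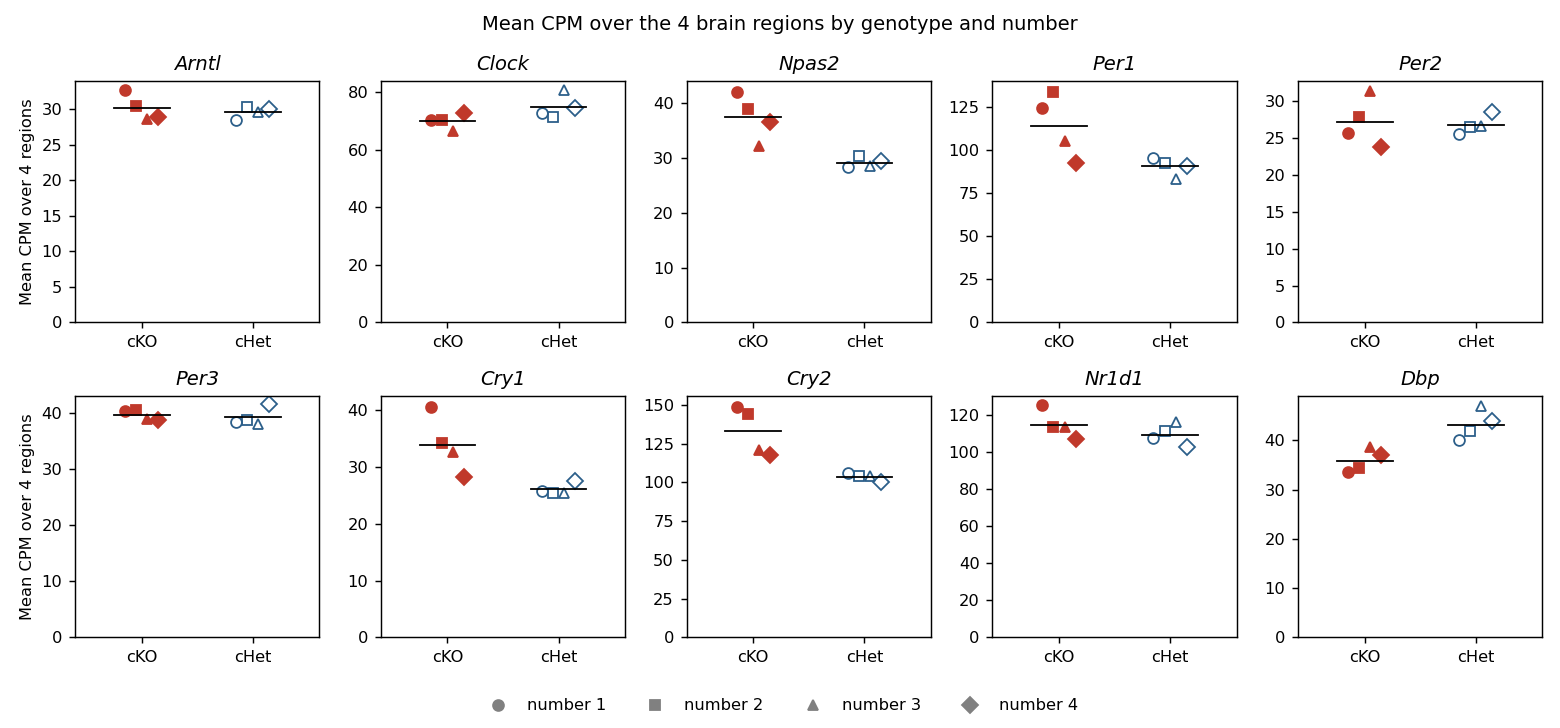
CPM of each clock gene averaged over the 4 brain regions by genotype and number, with cKO left of cHet; symbols mark the number and lines the group means. Cry1, Cry2 and Npas2 values of cKO lie above all cHet values, Dbp values of cKO below, and numbers 1 and 2 are the highest cKO values of Per1, Cry1, Cry2 and Npas2.

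A genotype effect that differed between regions was not shown for any of the 10 genes. The interaction test called 0 members with edgeR and 0 with DESeq2, where 0.318% of all genes tested were called, and 2 had an unadjusted p under 0.05. These were Nr1d1 (adjusted p = 0.467) and Dbp (adjusted p = 0.503). A gene called in 1 region and not in another, such as Dbp in substantia nigra, was thus not shown to differ between them.

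In the pituitary no clock gene passed, where 0.00815% of all genes tested were called. With 3 libraries a genotype and shallower libraries, edgeR called 0 of 10 members, DESeq2 0, and 3 had an unadjusted p under 0.05. Cry2 had 98.8, 78.1 and 81.6 CPM in cKO, against 56.7, 56.6 and 49.3 CPM in cHet (log2 fold change 0.67, SE 0.18, adjusted p = 0.432 by edgeR). Per1 had 249.9, 259 and 332 CPM in cKO, against 235, 189.8 and 207 CPM in cHet (log2 fold change 0.41, adjusted p = 0.653 by edgeR). For both genes all cKO libraries lay above all cHet libraries, as they did for 5.65% of all genes tested. Per2 had 56.1, 56.3 and 26.5 CPM in cKO, against 25.1, 35.5 and 13.1 CPM in cHet (log2 fold change 0.94, adjusted p = 0.575 by edgeR), and it passed where no filter on low counts was used (adjusted p = 0.0267). Cry1 had 45, 34.5 and 25.9 CPM in cKO, against 18.2, 22.9 and 30.7 CPM in cHet, and Dbp had 72.3, 81.1 and 49.4 CPM in cKO, against 52.2, 108 and 53.4 CPM in cHet. Library 3 of each genotype had the lowest Per2 of its group. The numbers paired the 2 genotypes here, and with the number as a block 0 members and 33 of all genes passed, against 1 without it. The other log2 fold changes were 0.057 for Per3, 0.11 for Arntl, 0.056 for Clock, -0.085 for Nr1d1 and 0.13 for Npas2.

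In ribosome-bound RNA of P0 brains no clock gene passed either, where 0.0307% of all genes tested were called. edgeR called 0 members, DESeq2 0, and 0 had an unadjusted p under 0.05. Arntl was 16.2 at the lowest, 18.8 at the median and 22.6 CPM at the highest in cKO, against 13.6 at the lowest, 16.2 at the median and 19.9 CPM at the highest in cHet (log2 fold change 0.22, adjusted p = 0.672 by edgeR). Cry2 was 52.8 at the lowest, 64.3 at the median and 76.2 CPM at the highest in cKO, against 55.2 at the lowest, 67 at the median and 74.5 CPM at the highest in cHet (log2 fold change -0.021, SE 0.085). Per1 was 45 at the lowest, 56.6 at the median and 63.8 CPM at the highest in cKO, against 49.7 at the lowest, 61 at the median and 71.9 CPM at the highest in cHet (log2 fold change -0.13, SE 0.088). The ranges overlapped for all 10 genes. Cry1 (-0.026, SE 0.086), Npas2 (0.060, SE 0.12) and Dbp (-0.076, SE 0.18) had log2 fold changes on either side of 0 or near it, and those of the other genes were 0.14 for Clock, -0.19 for Per2, 0.33 for Per3 and -0.051 for Nr1d1. Age, tissue and RNA fraction all differ between these libraries and the P21 regions, so the 2 sets of effects were not compared by a test.

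Primary neurons, in which Nova1 fell the most, showed no clock gene past the threshold in any of the 3 comparisons when tested without a block for the number. edgeR and DESeq2 each called 0 members in KO against WT, KO + Impact against KO and KO + Impact against WT, where 0.722%, 0.00674% and 0.378% of all genes tested were called. In KO against WT 1 gene had an unadjusted p under 0.05, and in the other comparisons 0 had. That gene was Dbp, with 6.30, 8.66, 6.55 and 7.60 CPM in KO + Impact, 6.83, 8.80, 5.56 and 6.98 CPM in KO and 8.30, 10.2, 7.06 and 9.76 CPM in WT (KO against WT, log2 fold change -0.33, SE 0.15, adjusted p = 0.44 by edgeR). Libraries of the same number deviated together in these cultures, and with the number as a block Dbp passed in KO against WT (log2 fold change -0.33, adjusted p = 0.0453). The block raised the genes called to 942 in KO against WT, 27 in KO + Impact against KO and 503 in KO + Impact against WT, against 107, 1 and 56 without it. Within every number, KO and KO + Impact had less Dbp than WT. Both are set against the same WT libraries, and the share of all genes with that order was not computed. Cry2 had 94.8, 101, 92.1 and 103 CPM in KO + Impact, 102, 106, 86.9 and 100.005 CPM in KO and 92.2, 89.1, 88.5 and 91.6 CPM in WT (KO against WT, 0.13, SE 0.059, adjusted p = 0.455 by edgeR). Per1 had 60.1, 59.3, 46.3 and 64 CPM in KO + Impact, 69.4, 58.4, 51.1 and 61.8 CPM in KO and 59.9, 51.6, 44.9 and 58.6 CPM in WT (KO against WT, 0.16, SE 0.11, adjusted p = 0.665 by edgeR). For these genes the ranges of the 3 groups overlapped.

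Over all 10 genes the log2 fold changes ran from -0.16 (Per2) to 0.14 (Per3) in KO + Impact against KO, from -0.29 (Dbp) to 0.11 (Cry2) in KO + Impact against WT and from -0.33 (Dbp) to 0.16 (Per1) in KO against WT. The comparisons share cultures, so they are not independent. Npas2 was low in these cells, with 4.16, 4.33, 3.01 and 3.21 CPM in KO + Impact, 3.31, 5.39, 2.43 and 3.33 CPM in KO and 3.71, 5.39, 2.48 and 4.64 CPM in WT, and its SE was 0.25 in KO against WT.

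Of other regulators of the loop, 0 of 12 rose and 0 fell in substantia nigra, 1 of 12 rose and 0 fell in hypothalamus and 0 of 12 rose and 0 fell in periaqueductal gray. Gm129 (Ciart), a repressor of the ARNTL pair, rose in hypothalamus (0.44, SE 0.14, adjusted p = 0.0444) and caudate putamen (0.58, SE 0.17, adjusted p = 0.041). The Gm129 call was lost in hypothalamus without cKO 1, cKO 2, cHet 1, cHet 2 or cHet 3, and in caudate putamen without cKO 1, cKO 2, cHet 1, cHet 2 or cHet 4. In the average over regions Gm129 (0.32, adjusted p = 0.0014), Nfil3 (0.27, adjusted p = 0.00591), the D-box repressor, and Tef (0.10, adjusted p = 0.00561), a D-box activator related to Dbp, rose. In that average 39% of all genes tested were called and 19.4% rose. Tef and Nfil3 did not pass on summed counts.

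Nr1d2 (REV-ERBβ), which is close to Nr1d1 in function, had log2 fold changes of 0.017 in caudate putamen, -0.028 in substantia nigra, -0.047 in hypothalamus and -0.0046 in periaqueductal gray. In the same order Rora, an activator at ROR elements, had 0.087, -0.058, 0.22 and 0.19, and Hlf, a D-box activator, had -0.18, 0.13, -0.045 and 0.29. Bhlhe40 had 0.30, 0.054, -0.14 and 0.043, and Bhlhe41 had -0.034, -0.085, -0.16 and 0.13; both encode E-box repressors. None of these 5 passed in a region.

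Of enzymes that modify or degrade clock proteins, 1 of 14 rose and 0 fell in caudate putamen, 2 of 14 rose and 0 fell in hypothalamus and 0 of 14 rose and 0 fell in periaqueductal gray. The casein kinase genes Csnk1d (0.19, adjusted p = 0.0158) and Csnk1e (0.20, adjusted p = 0.021), whose products phosphorylate PER proteins, rose in hypothalamus. The deubiquitinase gene Usp2 rose in caudate putamen (0.22, adjusted p = 0.0208). The Csnk1d call was lost without cHet 1, that of Csnk1e without cKO 1, cKO 2, cHet 1 or cHet 4, and that of Usp2 without cKO 2, cHet 1 or cHet 4. Of cofactors, 1 of 14 rose and 0 fell in hypothalamus and 0 of 14 passed in each other region, the gene in hypothalamus being Hdac3 (0.22, adjusted p = 0.0125), the deacetylase that NR1D1 recruits, a call lost without cKO 2. In the average over regions, where 19.4% of all genes tested rose, Csnk1d (0.11, adjusted p = 0.000994) and Csnk1e (0.14, adjusted p = 6.45e-05) rose. So did Usp2 (0.21, adjusted p = 0.000119) and Hdac3 (0.17, adjusted p = 2.2e-05), and the calls on these genes in the average held in every alternative.

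Of peptides, receptors and regulators known from the suprachiasmatic nucleus, 0 of 16 rose and 1 fell in hypothalamus. The gene that fell was Rgs16, a G protein regulator of that nucleus, with 25.4 ± 1.72 CPM in cKO, against 41.5 ± 6.03 CPM in cHet (SD, n = 4 each, -0.71, SE 0.092, adjusted p = 0.00017), and that call held in every alternative. In caudate putamen Gem, which encodes a small GTPase, fell (-1.01, adjusted p = 0.0234), a call lost without any 1 of 5 libraries, and in the other 2 regions 0 passed. The nucleus is a small part of the dissected hypothalamus, and these levels are those of the whole block.

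Some genes of other groups were also called between genotypes in the same libraries. Whether a list held more calls than expected from all genes was not tested, here and in the next paragraph. The share of all genes called lay between 9.73% (periaqueductal gray) and 12% (hypothalamus). A count of 1 or 2 genes in a list thus does not show that the group moved. Markers of endothelial cells and pericytes summed to 112 to 131 CPM in cKO hypothalamus, against 147 to 173 in cHet. Their sums were 111 to 139 CPM in cKO and 145 to 179 in cHet periaqueductal gray, 151 to 191 in cKO and 199.8 to 234 in cHet caudate putamen, and 145 to 167 in cKO and 186 to 217 in cHet substantia nigra. All 8 of these markers were detected in each region, and the genotypes did not overlap. Of 8 oligodendrocyte markers 0 rose in any region, while 4 fell in hypothalamus and 2 in each of the other regions. Their sums were 11034 to 14407 CPM in cKO, against 13348 to 15815 in cHet hypothalamus. Of 8 astrocyte markers 0 rose and 1 fell in caudate putamen, 1 rose and 0 fell in substantia nigra, 1 rose and 3 fell in hypothalamus and 1 rose and 2 fell in periaqueductal gray. Sums of the oligodendrocyte, astrocyte, microglia and neuron markers overlapped between genotypes in each region.

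Of glucocorticoid-responsive genes, 4 of 14 rose and 0 fell in caudate putamen, 1 of 14 rose and 0 fell in substantia nigra, 1 of 14 rose and 1 fell in hypothalamus and 1 of 14 rose and 0 fell in periaqueductal gray, and Fkbp5, which encodes a chaperone of the glucocorticoid receptor, rose in all 4, a call lost outside hypothalamus without any 1 of several libraries and, in caudate putamen and substantia nigra, with DESeq2 (adjusted p = 0.0768 and 0.119) (in the same order of regions, log2 fold changes 0.50, 0.63, 0.67 and 0.50). Of activity-regulated genes, 0 of 12 rose and 3 fell in caudate putamen, 0 of 9 rose and 1 fell in substantia nigra, 0 of 10 rose and 1 fell in hypothalamus and 0 of 10 rose and 2 fell in periaqueductal gray, and Arc fell in all 4, a call lost in substantia nigra without any 1 of 7 libraries and with the replicate block (adjusted p = 0.076) (log2 fold changes -1.53, -0.44, -0.56 and -0.59). Of temperature-responsive genes, 2 of 10 rose and 3 fell in caudate putamen, 2 of 10 rose and 4 fell in substantia nigra, 2 of 10 rose and 3 fell in hypothalamus and 2 of 10 rose and 5 fell in periaqueductal gray, with the cold-inducible RNA-binding gene Rbm3 among those that rose in each (log2 fold changes 1.53, 1.598, 1.62 and 1.56). The part of blood vessel, oligodendrocyte or astrocyte content, glucocorticoid, neuronal activity or temperature in the clock gene differences was not tested.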

How the data were processed

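Each library has 1 table with a tag number and an RPKM value for each of 23038 genes. The submitters' processing notes list edgeR and the genome build mm10; no source used here names the aligner or the counter. In 6 tables the deposited tag numbers are whole counts, and in 56 they are estimated counts with fractions, as the authors deposited them, so they were rounded. The deposited RPKM were made by the authors from tag number, total and exon length, which the tables themselves show. The shares and positions of motifs were computed from RefSeq windows.

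Counts went into the quasi-likelihood test of edgeR 4.0.16 (TMM scaling, filterByExpr with a minimum count of 10 and total of 15) in R 4.3.3, with Benjamini-Hochberg adjustment over all genes tested and a threshold of 0.05. Each tissue was fitted alone, the 3 groups of primary neurons together and the 4 brain regions together for the average and interaction. CPM shown were scaled by TMM over all 62 libraries. DESeq2 1.42.0 was an alternative, as were other scaling, no filter, fractional counts, removal of Rn45s, a block for the replicate number and leaving out each library. The code was tested on simulated data. No 2 libraries of a group differed by less than sampling noise. The labels number the replicates in each genotype. Same-numbered libraries deviated together in primary neurons (r = 0.148 to 0.340) and pituitary (0.109 to 0.126), a pairing seen in the data and not given by the labels. In periaqueductal gray the sign of it was weaker (0.0183 to 0.0783), and the other tissues did not show it. The main test had no block for the number in any tissue, and the replicate block was an alternative only. The members and gene lists were chosen with earlier results of these data known. Named beyond the members were at most 4 genes of a list and comparison, those called with the smallest adjusted p, 8 other regulators of the loop and opposite-strand genes, which were added from the annotation after the files were read. Some genes of the lists, and counts that turn on them, are not reported here.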

Additional observations from a re-analysis of the deposited data

Results flagged for a closer look

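In groups of 4 to 10 libraries, a library was picked out where its gap to the nearest other, divided by the range of the group, passed Dixon's 95% limit. This held in 5 of 130 combinations of gene and group, and chance picks out about 1 in 20. The pituitary, with 3 libraries a group, was not tested in this way. Cry1 was low in primary neurons KO 3, at 31.7 CPM, with the others at 36.8 to 36.9 CPM. Nr1d1 was low in periaqueductal gray cKO 1, at 98.2 CPM, with the others at 103 to 104 CPM, and Arntl was low in periaqueductal gray cHet 3, at 16.7 CPM, with the others at 24.2 to 25.3 CPM. Clock was high in hypothalamus cHet 4, at 88.8 CPM, with the others at 80.9 to 81.3 CPM, and high in substantia nigra cKO 4, at 55.8 CPM, with the others at 44.3 to 45.8 CPM. None of these 5 libraries decided a genotype call on the gene it stands out for. The Arntl library decided the step between cHet periaqueductal gray and cHet substantia nigra, as given with that order.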

How the results depend on the processing

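Of 2380 values that the alternatives gave for 120 member results of the genotype comparisons, their average, the interaction and the overall test of regions, 2357 kept their call, 13 lost it, 10 gained it and 0 of the called ones changed direction. Between pairs of cHet tissues, the pituitary included, 1430 of 1450 values kept their call, 5 lost it (Per3 and Nr1d1, hypothalamus against caudate putamen, each with 1 library left out) and 15 gained it, among them Clock for that pair without substantia nigra cHet 3 and Per3 between periaqueductal gray and caudate putamen with no filter. Members called numbered 2 to 5 in hypothalamus, 2 to 4 in caudate putamen, 3 to 4 in periaqueductal gray and 2 to 4 in substantia nigra when 1 library was left out. With no filter 1 member was called in the pituitary (Per2), and with the replicate block 1 in KO against WT neurons (Dbp); the cause was not tested. Same-numbered libraries of hypothalamus, caudate putamen, substantia nigra and TRAP did not pair the genotypes (r = -0.190 to 0.154). In periaqueductal gray 3 of 4 cKO libraries correlated best with the cHet library of their number. There r was 0.0183 to 0.0783, against -0.0768 to 0.0369 for other numbers, so pairing was not settled. In the brain regions the replicate block called 5 members in hypothalamus (with Dbp, adjusted p = 0.0381), 3 in caudate putamen (with Cry1, 0.0435) and 4 in substantia nigra (with Per1, 0.0493). It changed no other genotype call on members apart from Dbp in KO against WT. Over the 6 pairs of regions, the library of the same number correlated best in 23 of 24 matches between cKO libraries (r = 0.0560 to 0.160) and in 15 of 24 between cHet libraries (-0.0181 to 0.106), a hint from the data and not from the design. Over all genes, the block moved the calls from 1457 to 889 in substantia nigra, from 1458 to 2176 in periaqueductal gray and from 51 to 151 in the interaction. DESeq2 called 320 in KO against WT, 8 in KO + Impact against KO, 155 in KO + Impact against WT, 200 in the interaction, 13 in TRAP against 4 by edgeR, and 5 in the pituitary, where no filter gave 75. Leaving out 1 library, which also lowers the number of samples, took the lowest counts to 1060 in hypothalamus and, each without cKO 2, to 764, 826 and 705 in periaqueductal gray, caudate putamen and substantia nigra, against 1823, 1458, 1559 and 1457; the hypothalamic one was without cKO 1. It gave 0 to 9 in the pituitary, 46 to 103 in KO against WT, 1 to 3 in KO + Impact against KO, 22 to 50 in KO + Impact against WT and 26 to 77 in the interaction. Depth limits the pituitary, where Npas2 had as few as 1 tag in a cKO library, and Per3 in TRAP.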

Other observations

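Clock genes in opposite phase can be set against each other within a genotype. Over the 8 libraries of a region, as deviations from the genotype mean of log2 CPM, Dbp and Arntl had Pearson's r of -0.82 and Spearman's rho of -0.79 in substantia nigra (exact permutation p = 0.0451 and 0.0278, two-sided, within genotype; Benjamini-Hochberg adjusted p = 0.241 over 8 relations). Without the 2 libraries farthest from the median r was -0.84. In caudate putamen r was 0.71 and rho 0.64 (exact permutation p = 0.0903 and 0.12, adjusted p = 0.241), and without the 2 farthest libraries r was 0.052, so that relation rested on them. The other 6 relations, of Dbp with Nr1d1 in 4 regions and of Dbp with Arntl in hypothalamus and periaqueductal gray, had r between -0.47 and 0.49, and without the 2 farthest libraries between -0.70 and 0.42. The largest shifts among them were Dbp with Arntl in hypothalamus, -0.15 over all libraries and -0.70 without those 2, and Dbp with Nr1d1 in caudate putamen (0.26 and -0.27) and substantia nigra (-0.13 and -0.50). None of the 8 passed after adjustment.

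Across the 15 groups, the gene with mean log2 CPM most like each member among 14494 genes was Cul5 (0.959) for Arntl, Fam179b (0.992) for Clock, Rasd2 (0.965) for Npas2, Spint1 (0.967) for Per1, Rnf166 (0.987) for Per2, Arnt (0.993) for Per3, Cnot7 (0.858) for Cry1, D930015M05Rik (0.941) for Cry2, Frmd7 (0.962) for Nr1d1 and St6galnac2 (0.977) for Dbp, with Pearson's r in brackets. Sphk2, on the strand opposite to Dbp, was next for Dbp (0.974). These are descriptions over groups that share tissue and depth, and D930015M05Rik shares exon sequence with Cry2.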
